A study of Mus musculus with 28 samples.

Results

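The 9 genes described here are markers of newborn neurons and of the steps that lead to them: Nes, Eomes, Neurod1, Igfbpl1, Sox4, Sox11, Dcx, Tubb3 and Calb2. They were chosen by name. Every probe set with 1 of these symbols as its single gene symbol was taken, which gave 1 probe set for each of the 9 genes, out of 19938 genes measured. The probe sets are 10493114 for Nes, 10589994 for Eomes, 10484276 for Neurod1, 10512721 for Igfbpl1, 10408450 for Sox4, 10399725 for Sox11, 10607156 for Dcx, 10576332 for Tubb3 and 10581654 for Calb2. The question put to them was whether their RNA differed with the fosB genotype, after kainate and with age, since fosB-null mice are reported to have impaired adult neurogenesis.

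In the adult hippocampus new neurons arise in the subgranular zone of the dentate gyrus. Radial glia-like stem cells, which hold the intermediate filament nestin (Nes), give rise to dividing intermediate progenitors marked by Tbr2 (Eomes), then to neuroblasts with NeuroD1, Sox4, Sox11 and doublecortin (Dcx), and then to immature granule cells that pass through a calretinin (Calb2) stage before they mature. These cells are few beside the mature neurons. Several of the genes are also used elsewhere: nestin by reactive astrocytes and by cells of blood vessels, calretinin by interneurons, mossy cells and Cajal-Retzius cells, Neurod1 by mature granule cells, and class III beta-tubulin (Tubb3) by neurons of any age. Seizures are known to alter dentate neurogenesis in rodents. FosB and its short form, deltaFosB, are partners of Jun proteins in the AP-1 transcription factor, which seizures raise in the dentate gyrus.

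RNA of whole hippocampus was measured on 28 Affymetrix Mouse Gene 1.0 ST arrays, 100 ng of total RNA each, from mice of the C57BL/6J strain. At 10 weeks there were wild type, fosB-null (labelled G/G) and fosB d/d mice (labelled as lacking the FosB protein, and known to keep deltaFosB), each after saline or kainate (KA), an agonist of glutamate receptors that causes seizures. These 6 groups held 3 arrays each. The aged mice, of 64.7 to 71 weeks, carried no treatment label. Of these, 3 arrays were wild type, 2 were d/d and 5 were fosB-null, of which 3 came from mice labelled with epilepsy and 2 from mice without, and the aged wild type and d/d mice were labelled free of epilepsy. Both alleles are germline changes, carried by every cell. The dose of KA and the time from KA to sampling were not given in the sources used here, and replicates are labelled biological without saying that each is 1 animal, so the spread between arrays may be in part technical. In bulk tissue, fewer cells of a type and less RNA per cell cannot be told apart.

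The labels and the arrays had the following limits. The source name of the d/d saline arrays mentions kainate, but title and treatment give saline, and they were used as saline. The growth protocol names a single older age for all mice, against the 10 weeks on the young samples. All mice are labelled female, yet the Y-linked Eif2s3y was at 9.78 to 10.41 in the 18 young arrays and at 4.12 to 4.51 in the aged ones, and Xist was at 5.91 to 9.58 against 12.09 to 13.00, with the 9.58 in wild type saline replicate 1. Sex signal and age can therefore not be told apart. Fosb itself was at 8.74 ± 0.06 (SD, n = 3) in wild type, 8.45 ± 0.05 in fosB-null and 9.18 ± 0.23 in d/d saline mice and passed in no comparison (fosB-null minus d/d saline -0.73, adjusted p = 0.109), and since which part of Fosb the probe set reads is not known here, it does not check the genotypes. The young arrays were split here into array sets by replicate number and group, and the labels do not state such sets. Deposited medians were 8.33 to 8.43 in array set 2, which is replicates 2 and 3 of each saline group and of KA in wild type, 8.07 to 8.11 in set 1, the replicate 1 arrays of the 6 young groups, 8.05 to 8.11 in set 3, replicates 2 and 3 of both mutant KA groups, and 7.95 to 8.15 in the aged. The medians thus set apart set 2 but not sets 1 and 3. Since medians differed, the 28 columns were quantile-normalized, and every level below is a normalized log2 signal unless stated, each difference a difference of mean log2 signals, and each adjusted p from limma over all 19938 genes, called under 0.05. The 10 hippocampal neuron markers, from Spink8 (8.38 to 9.32) and Amigo2 (8.94 to 9.63) to Prox1 (10.66 to 11.41) and Zbtb20 (12.03 to 12.73), had a mean level of 10.55 to 10.76 on each array. Choroid plexus markers varied widely, with a mean level of 8.56 to 11.01.

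The promoters of Nes and Dcx are shown because these were the genes called after KA in wild type mice, and because AP-1 is the factor that the fosB alleles alter. Both are from RefSeq on GRCm38.p6, written on the gene's strand up to the base before its first annotated start: Nes from chr3:87970843-87971092 on the plus strand (250 bases) and Dcx from chrX:143933397-143933469 on the minus strand (73 bases, the part of the window before the outermost start).
Nes: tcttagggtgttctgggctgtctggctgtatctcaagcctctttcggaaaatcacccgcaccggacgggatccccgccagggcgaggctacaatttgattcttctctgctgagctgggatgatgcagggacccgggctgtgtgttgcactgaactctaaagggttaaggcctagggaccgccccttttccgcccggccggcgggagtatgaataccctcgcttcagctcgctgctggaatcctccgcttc
Dcx: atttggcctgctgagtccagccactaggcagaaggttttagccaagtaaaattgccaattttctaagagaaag
These sequences hold no match to the AP-1 motif TGANTCA, to the cAMP response element TGACGTCA or to the E-box CANNTG on either strand, so no letters are in capitals. Windows of 300 bases were given for 7 of the 9 genes (8 windows, none for Igfbpl1 and Calb2), and they held 0 AP-1 and 0 cAMP response element matches, where 7.81% and 1.79% of all 32851 windows hold one. The E-box is the motif read by Neurod1 and related proneural factors and is in 72.3% of all windows. It was in the windows of Sox11 (2 matches), Neurod1 (1) and Sox4 (1). A match or its lack describes these letters only.

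After KA in wild type mice, nestin RNA rose 1.66-fold and doublecortin RNA fell to 0.79 of the saline level. The other 7 genes did not pass the test. So 2 of the 9 genes were called, where 6.9% of all genes were, and 4 of the 9 had KA and saline arrays with no overlap, where 22.3% of all genes did. Over the 9 genes the median difference was -0.06, against 0.01 over all genes.

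Nes, the stem and progenitor filament, stood at 7.60, 7.75 and 7.65 in the wild type saline arrays (replicates 1, 2 and 3) and at 8.78, 8.05 and 8.36 after KA. Every KA array lay above every saline array, and replicate 1 was the highest. The difference was 0.73 (SE 0.14, 95% confidence interval 0.43 to 1.03, adjusted p = 0.00448). In fosB-null mice Nes was 7.63, 7.69 and 7.44 with saline and 7.84, 8.07 and 8.09 with KA. Again the ranges did not overlap, but the difference of 0.42 (SE 0.14, interval 0.12 to 0.71) missed the threshold (adjusted p = 0.219). In d/d mice the arrays gave 7.48, 7.60 and 7.59 with saline and 7.76, 8.00 and 7.71 with KA, with no overlap and a difference of 0.27 (SE 0.14, interval -0.03 to 0.57, adjusted p = 0.468). In both mutants replicates 2 and 3 with KA are in set 3 and with saline in set 2, and with the array set as a block the Nes difference was 0.23 in fosB-null (adjusted p = 0.785) and 0.09 in d/d mice (adjusted p = 0.877). That block fits a shift for each set that all young groups share, wild type KA included. Between the replicate 1 arrays, all in set 1, the difference was 0.21 in fosB-null and 0.28 in d/d mice. In the other replicates it was 0.52 and 0.26. Over the 10 groups Nes was lowest in the 3 saline groups, 7.56 ± 0.07 in d/d, 7.59 ± 0.13 in fosB-null and 7.67 ± 0.08 in wild type (SD, n = 3), between 7.72 and 7.80 in the 4 aged groups, and highest after KA, 7.83 ± 0.15 in d/d, 8.00 ± 0.14 in fosB-null and 8.39 ± 0.36 in wild type. Arrays of neighbouring groups in this order overlapped throughout. The wild type call was lost when the fit held only the groups compared (adjusted p = 0.072). Within array set 2 alone the difference was 0.50 (SE 0.12, adjusted p = 0.0305), and between the replicate 1 arrays it was 1.18. Without wild type saline replicate 1 it was 0.69 (adjusted p = 0.0187). Set 2 holds 2 arrays per group, and alone it gave 3538 called genes for KA in wild type mice, against 1375 in the main fit.

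**Figure D1:**
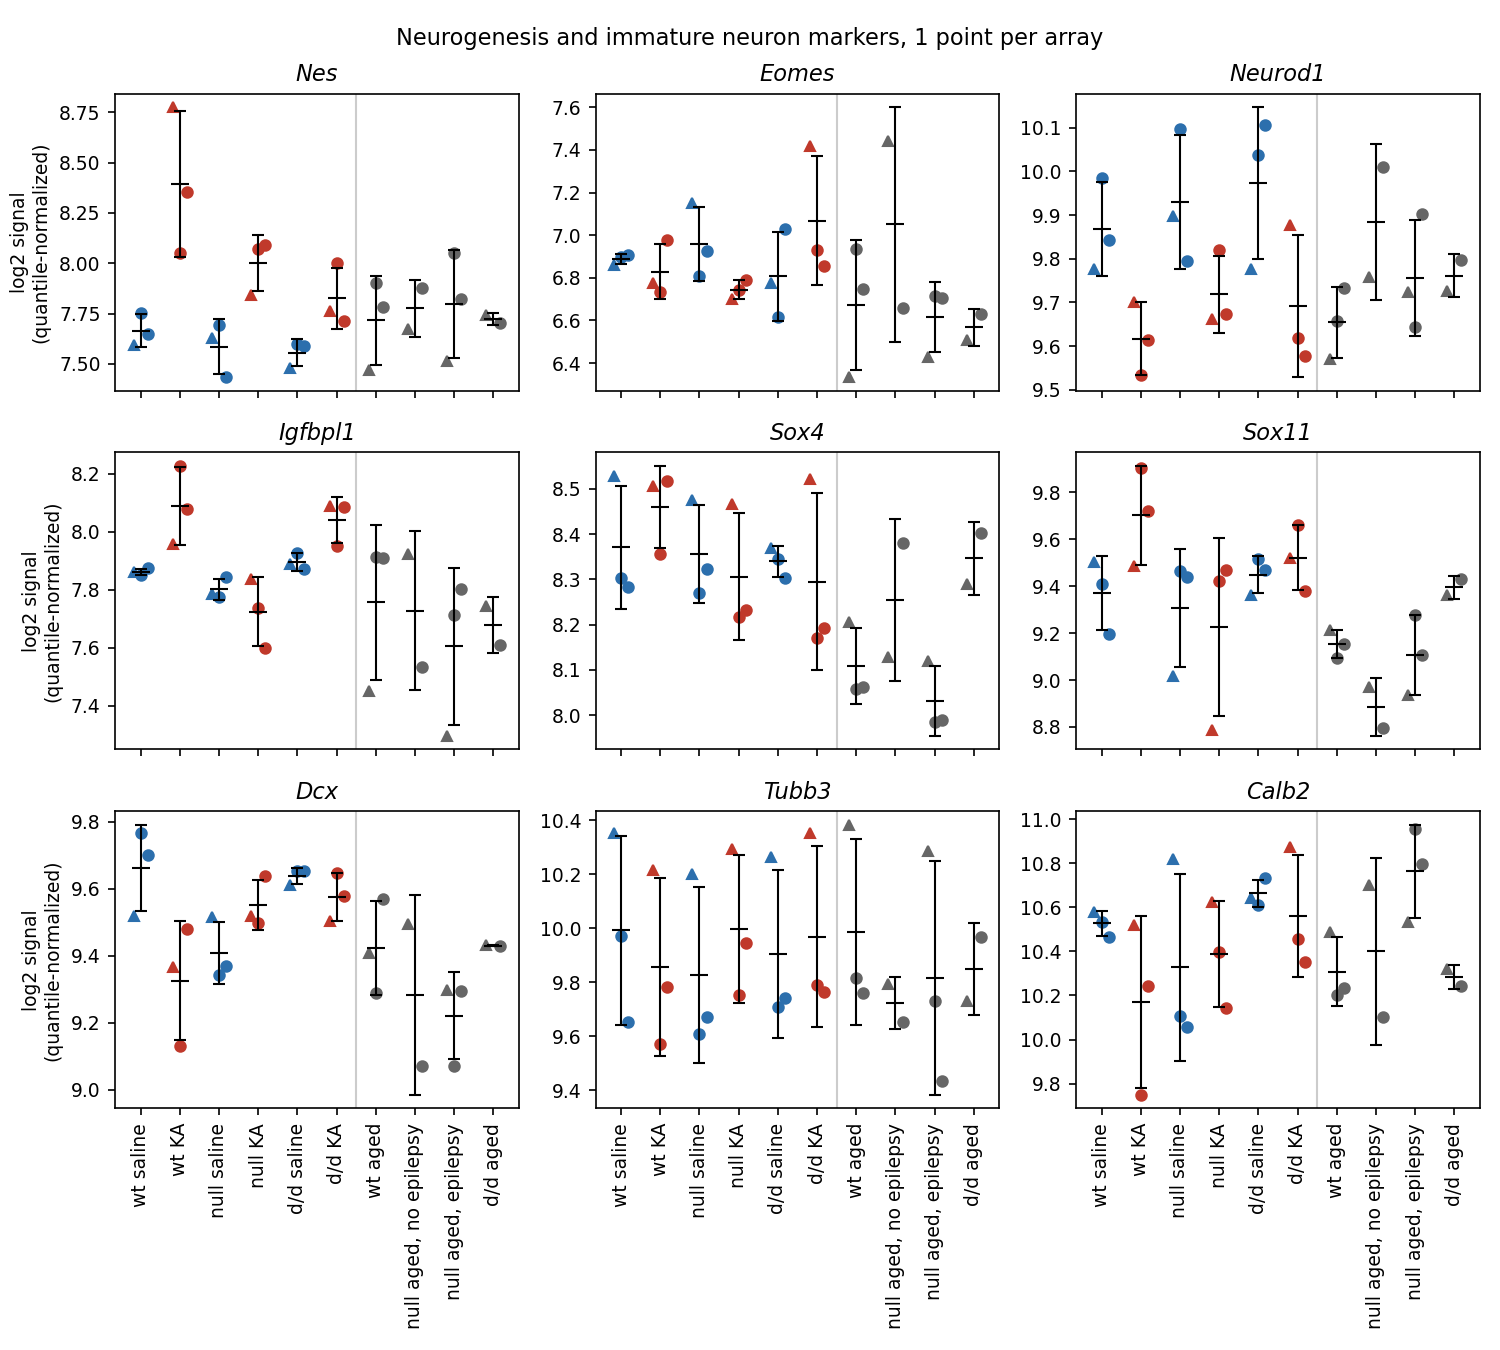
Normalized log2 signal (vertical axis) of the 9 genes, 1 panel each, in the 10 groups (horizontal axis). Each point is 1 array, triangles are replicate 1 and circles the other replicates, with saline in blue, kainate in red and aged in grey, and black bars give the mean ± SD; the 3 wild type kainate arrays of Nes (8.05 to 8.78) lie above the wild type saline arrays (7.60 to 7.75), and the triangles of Tubb3 stand above the circles in the young groups.

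Markers of other cells moved with Nes after KA. For the counts below, 6.9% of all genes were called in wild type, 0.762% in fosB-null and 0.461% in d/d mice. All 8 reactive astrocyte markers rose in wild type mice, from Timp1 (3.89, SE 0.30, adjusted p = 6.69e-06) to Lcn2 (1.05, SE 0.27, adjusted p = 0.0295), with Gfap in between (1.56, SE 0.13, adjusted p = 6.69e-06), and 7 of 8 rose in fosB-null and 5 of 8 in d/d mice. The mean level of that list was 9.24 to 9.39 in wild type saline and 11.15 to 11.52 in wild type KA arrays, 10.51 to 10.94 in fosB-null KA and 10.09 to 10.93 in d/d KA, against 9.20 to 9.37 in the saline arrays of both mutants. The order of the KA groups by this mean (11.33 in wild type, 10.76 in fosB-null, 10.39 in d/d) is that of Nes. The fosB-null and d/d KA arrays overlapped both in this mean and in Nes, so the order of the mutants is not settled in either. Endothelial and pericyte markers were at 9.07 to 9.21 after KA and 9.17 to 9.20 with saline in wild type mice, with 0 of 10 higher and Kdr, a receptor for VEGF, lower (-0.37, SE 0.08, adjusted p = 0.0127). The part of either cell type in the Nes difference was not tested.

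Among genes of the intermediate progenitor and the early neuroblast no KA difference passed. Neurod1, a proneural transcription factor, had a lower mean after KA in each genotype, with a difference of -0.25 in wild type (SE 0.11, interval -0.48 to -0.02, adjusted p = 0.191), -0.21 in fosB-null (adjusted p = 0.437) and -0.28 in d/d mice (SE 0.11, interval -0.51 to -0.06, adjusted p = 0.284). Its wild type arrays were 9.78, 9.99 and 9.84 with saline and 9.70, 9.53 and 9.61 with KA, with no overlap. In the mutants the arrays overlapped, and with the array set as a block the differences were -0.09 in fosB-null and -0.16 in d/d mice. Eomes, the T-box factor of intermediate progenitors, was dim, at 6.33 to 7.44 over the 28 arrays. It was -0.06 in wild type (adjusted p = 0.864), -0.22 in fosB-null (adjusted p = 0.551, arrays apart) and 0.26 in d/d mice (adjusted p = 0.458), where replicate 1 after KA (7.42) stood above the other arrays of that group (6.93 and 6.86). With the array set as a block Eomes was -0.08 in fosB-null and 0.39 in d/d mice (adjusted p = 0.919 and 0.383).

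Igfbpl1, a secreted protein akin to the insulin-like growth factor binding proteins and a neuroblast marker, was at 7.86, 7.85 and 7.87 in wild type saline and at 7.96, 8.23 and 8.08 in wild type KA arrays. The groups did not overlap, and the difference of 0.23 (SE 0.08, interval 0.06 to 0.39) had an adjusted p of 0.0936. It passed with the array set as a block (adjusted p = 0.0267) and within array set 2 (0.29, SE 0.07, adjusted p = 0.0312), where 3538 of all genes passed. In fosB-null mice it was 7.79, 7.77 and 7.84 with saline and 7.84, 7.74 and 7.60 with KA (difference -0.08, adjusted p = 0.761), with overlap. In d/d mice it was 7.89, 7.93 and 7.87 with saline and 8.09, 7.95 and 8.09 with KA (0.15, adjusted p = 0.473), with none. With the array set as a block the differences were 0.04 in fosB-null (adjusted p = 0.919) and 0.26 in d/d mice (adjusted p = 0.246).

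Sox11 and Sox4, related transcription factors of committed neuroblasts, did not pass after KA. Sox11 was 9.50, 9.41 and 9.19 in wild type saline and 9.48, 9.90 and 9.72 in wild type KA arrays, a difference of 0.33 (SE 0.17, interval -0.02 to 0.69, adjusted p = 0.285). Replicate 1 differed by -0.02, while within set 2 the difference was 0.51 (SE 0.09, adjusted p = 0.0135), where 3538 of all genes passed. Sox4 differed by 0.09 (adjusted p = 0.697).

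Doublecortin, the microtubule-binding protein of migrating and immature neurons, was at 9.52, 9.77 and 9.70 in wild type saline and at 9.37, 9.13 and 9.48 in wild type KA arrays. Each KA array lay below each saline array. The difference was -0.34 (SE 0.09, interval -0.53 to -0.14, adjusted p = 0.0349). In fosB-null mice Dcx was 9.51, 9.34 and 9.37 with saline and 9.52, 9.50 and 9.64 with KA, overlapping, with a difference of 0.14 (adjusted p = 0.566). In d/d mice it was 9.61, 9.65 and 9.65 with saline and 9.50, 9.65 and 9.58 with KA (-0.06, interval -0.25 to 0.13, adjusted p = 0.865). The wild type call was lost without wild type saline replicate 2 (adjusted p = 0.161) or 3 (0.103), without wild type KA replicate 1 (0.0574) or 2 (0.169), on the deposited scale (0.24) and with only the compared groups in the fit (0.207), and the difference lay between -0.43 and -0.24 in all 16 settings run. Without wild type saline replicate 1, the array with the high Xist, it was -0.41 (adjusted p = 0.0195). Within array set 2, where 3538 of all genes passed, it was -0.43 (SE 0.11, adjusted p = 0.0339) and between the replicate 1 arrays -0.15.

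The later markers did not pass after KA in any genotype. Calb2 was 10.58, 10.53 and 10.47 in wild type saline and 10.52, 9.75 and 10.24 in wild type KA arrays, a difference of -0.36 (SE 0.21, adjusted p = 0.366), with replicate 2 the lowest young array. The Cajal-Retzius (6 genes) and mossy cell lists (4 genes) held 0 called genes there, and thalamus markers, a neighbouring tissue, fell in 2 of 7, Slc17a6 (-0.71, SE 0.20, adjusted p = 0.0464) and Tcf7l2 (-0.30, SE 0.06, adjusted p = 0.00423), with a mean level of 8.42 to 8.43 with saline and 8.13 to 8.31 with KA. Of 9 interneuron genes Npy (0.81, SE 0.14, adjusted p = 0.00243) and Gad2 (0.34, SE 0.08, adjusted p = 0.0131) rose and Vip (-0.41, SE 0.09, adjusted p = 0.0138) fell, with a mean level of 10.39 to 10.53 with saline and 10.44 to 10.54 with KA. Over all genes 6.9% were called in this comparison. The part of the cells of these lists in the Calb2 values was not tested. Tubb3 differed by -0.14 (adjusted p = 0.811).

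**Figure D2:**
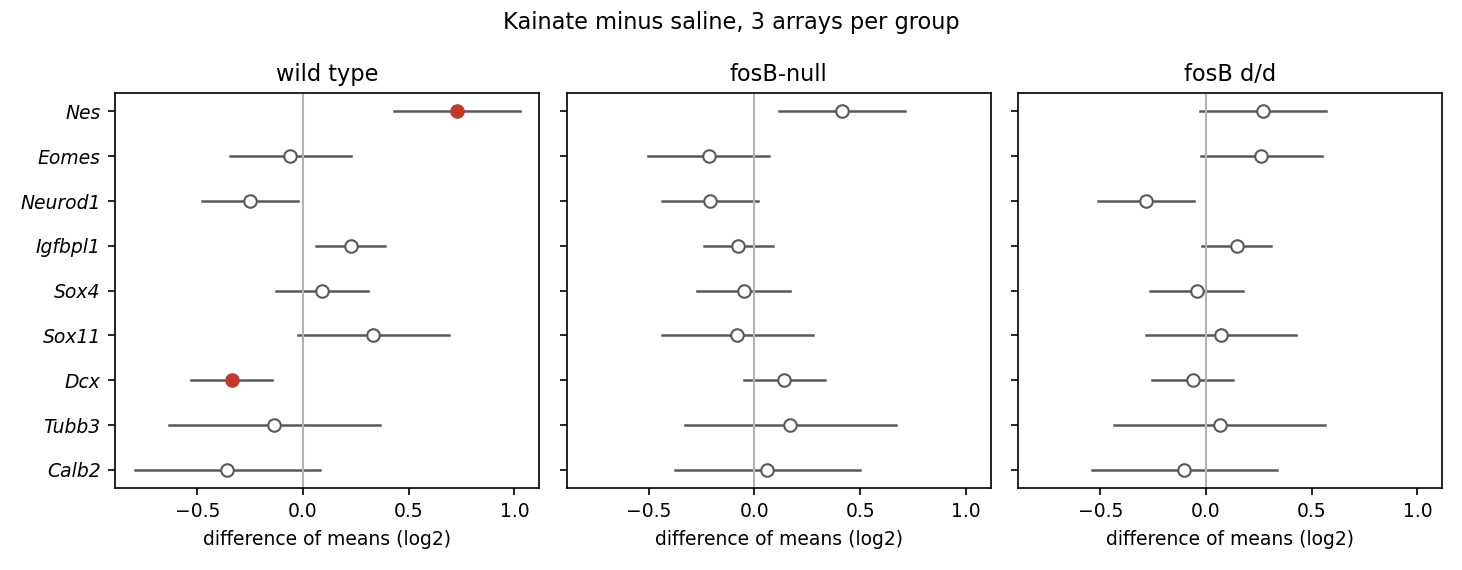
Difference of mean log2 signal, kainate minus saline (horizontal axis), for the 9 genes in wild type, fosB-null and fosB d/d mice, 3 arrays against 3. Lines are 95% confidence intervals and filled red points passed at an adjusted p under 0.05, which were Nes (0.73) and Dcx (-0.34) in wild type mice.

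In the mutants 0 of the 9 genes passed after KA, where 0.762% of all genes did in fosB-null (152 genes, and 476 with the replicate number as a block) and 0.461% in d/d mice (92, and 416 with the block). At an unadjusted p under 0.05 there was 1 of the 9 in each, Nes in fosB-null and Neurod1 in d/d mice, where 12.5% and 12.2% of all genes were. Arrays of KA and saline were apart for 2 of 9 genes in fosB-null (Nes higher, Eomes lower, against 17.3% of all genes) and for 2 of 9 in d/d mice (Nes and Igfbpl1 higher, against 16% of all genes). A call in wild type and none in a mutant does not show that the responses differ, so the difference of the responses was tested itself. The Dcx response was 0.48 higher in fosB-null than in wild type mice (SE 0.13, interval 0.21 to 0.75, adjusted p = 0.133, and 0.0635 to 0.417 over the alternatives run). For Igfbpl1 it was -0.30 (SE 0.11, interval -0.53 to -0.07, adjusted p = 0.235), for Nes -0.31 (interval -0.73 to 0.11, adjusted p = 0.52) and for Sox11 -0.41 (adjusted p = 0.469). With the array set as a block it was 0.43 for Dcx (adjusted p = 0.176), -0.19 for Igfbpl1 (adjusted p = 0.399) and -0.49 for Nes (adjusted p = 0.298). None of the 9 passed by limma, where 0.176% of all genes did. Dcx and Igfbpl1 were the 2 at an unadjusted p under 0.05, as were 13.7% of all genes. Between d/d and wild type the Nes response differed by -0.46 (SE 0.20, interval -0.88 to -0.04, adjusted p = 0.597) and that of Dcx by 0.27 (SE 0.13, adjusted p = 0.628). There 0 of 9 were called (0.0301% of all genes) and these 2 were at an unadjusted p under 0.05, as were 7.95% of all genes.

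With saline, the fosB-null arrays were lower in Dcx than the wild type arrays, without passing the test. The wild type values of 9.52, 9.77 and 9.70 and the fosB-null values of 9.51, 9.34 and 9.37 met at replicate 1, where the arrays differed by less than 0.01. They did not overlap. The difference was -0.25 (SE 0.09, interval -0.44 to -0.06, adjusted p = 0.422), and within array set 2, replicates 2 and 3, it was -0.38 (SE 0.11, adjusted p = 0.0825). Igfbpl1 also had arrays apart, by a small difference of -0.06. Of the 9 genes 7 were lower on average, 2 had arrays apart (13.5% of all genes) and 0 were called (0.0802% of all genes). Dcx was the 1 at an unadjusted p under 0.05, as were 8.77% of all genes. Calb2 differed by 0.24 in replicate 1 and by -0.42 in the other replicates.

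Between d/d and wild type mice with saline no difference approached the threshold. The adjusted p was 1 for each of the 9 genes, so 0 were called, where 0.01% of all genes were. At an unadjusted p under 0.05 there were 0 of the 9, where 1.82% of all genes were. Calb2 alone had arrays apart, at 10.64, 10.61 and 10.73 in d/d against 10.58, 10.53 and 10.47 in wild type (0.14 higher, where 6.63% of all genes were apart). Against d/d, fosB-null mice were lower in Dcx (-0.23, SE 0.09, interval -0.42 to -0.04, adjusted p = 0.561) and in Igfbpl1 (-0.09, adjusted p = 0.869), both with arrays apart (15% of all genes) and neither called (0.015% of all genes). Dcx was the 1 at an unadjusted p under 0.05, as were 7.49% of all genes. These comparisons share their arrays with each other and with the KA responses, so the same saline arrays enter several of them.

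After KA, fosB-null mice had less Igfbpl1 RNA than wild type mice. The fosB-null arrays stood at 7.84, 7.74 and 7.60 and the wild type arrays at 7.96, 8.23 and 8.08, with no overlap. The difference was -0.36 (SE 0.08, interval -0.53 to -0.20, adjusted p = 0.0417), and Igfbpl1 was 1 gene called of 9, where 0.792% of all genes were (158 genes, and 716 with the replicate block). Sox11 was lower too, at 8.79, 9.42 and 9.47 against 9.48, 9.90 and 9.72, with arrays apart but not called (-0.48, SE 0.17, interval -0.83 to -0.12, adjusted p = 0.218). Dcx was higher by 0.23 (SE 0.09, interval 0.03 to 0.42, adjusted p = 0.284), its arrays also apart, and the Nes difference was -0.39 (SE 0.14, interval -0.69 to -0.09, adjusted p = 0.228) with arrays that overlapped. So 3 of the 9 genes had arrays apart, where 16.4% of all genes did.

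Here replicates 2 and 3 of the compared groups lie in different array sets, set 2 for wild type and set 3 for fosB-null, and replicate 1 is shared. The Igfbpl1 difference was -0.12 in replicate 1 and -0.48 in the other replicates. With the array set as a block it was -0.25 (SE 0.08, adjusted p = 0.197). The call was also lost on the deposited scale (-0.56, adjusted p = 0.0729), with median centring (-0.36, adjusted p = 0.0767), with only the compared groups (adjusted p = 0.33), and without wild type KA replicate 2 (-0.29, adjusted p = 0.161) or 3 (-0.37, adjusted p = 0.104) or fosB-null KA replicate 2 (-0.37, adjusted p = 0.0948) or 3 (-0.30, adjusted p = 0.225).

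The d/d mice after KA had lower Nes than wild type, 7.76, 8.00 and 7.71 against 8.78, 8.05 and 8.36, with no overlap. The difference of -0.57 (SE 0.14, interval -0.87 to -0.27) had an adjusted p of 0.0865, with 0 of 9 genes called where 0.687% of all genes were. This difference passed in 3 of the 15 settings run. With the array set as a block it was -0.75 (adjusted p = 0.0475) and without wild type KA replicate 2 it was -0.74 (adjusted p = 0.0182). On the deposited scale it was -0.82 (adjusted p = 0.00867), where the median of all genes also moved, by -0.22. Over all settings it lay between -0.82 and -0.38, with an adjusted p of up to 0.453. Between the replicate 1 arrays it was -1.01, and in the other replicates -0.35. The reactive astrocyte markers Timp1 (-1.89, SE 0.30, adjusted p = 0.00849), Cd44 (-1.44, SE 0.23, adjusted p = 0.00823) and Serpina3n (-0.79, SE 0.15, adjusted p = 0.0264) were lower in the same comparison, 3 of 8 of that list, and their part in the Nes values was not tested. Dcx was 0.25 higher in d/d (SE 0.09, interval 0.06 to 0.44, adjusted p = 0.257), and these 2 genes had arrays apart, where 14% of all genes did. Both comparisons with wild type KA share those 3 arrays.

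Between the mutants after KA, Igfbpl1 was -0.32 in fosB-null against d/d (SE 0.08, interval -0.48 to -0.15, adjusted p = 1) and the arrays were apart, as were those of Eomes, also -0.32. The Igfbpl1 difference was -0.25 in replicate 1 and -0.35 in the other replicates. For the dim Eomes it was -0.72 in replicate 1, where the d/d array stood at 7.42, and -0.13 in the others. The background is 4.68% of all genes apart and 0 genes called by limma, with 345 genes, 2 of the 9 among them, at an unadjusted p under 0.05.

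**Figure D3:**
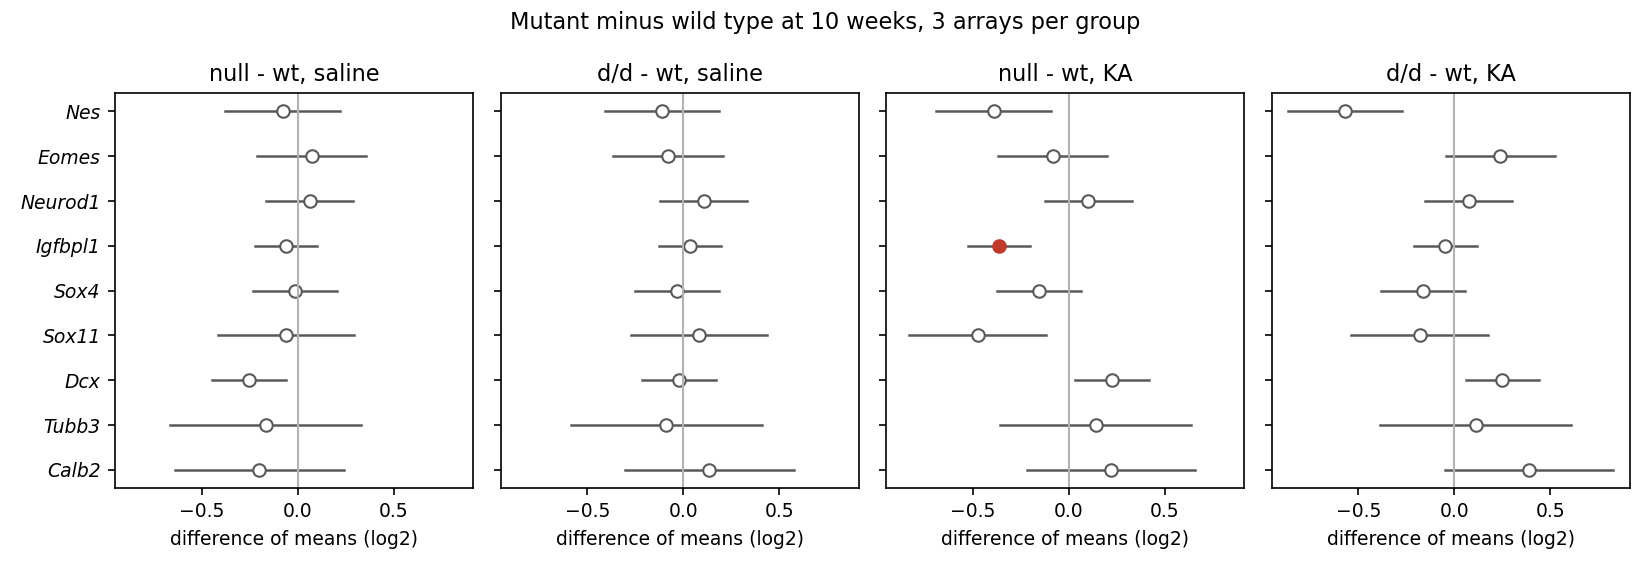
Difference of mean log2 signal (horizontal axis) of fosB-null and fosB d/d minus wild type mice, with saline and after kainate, for the 9 genes, 3 arrays against 3. Lines are 95% confidence intervals and the filled red point, Igfbpl1 in fosB-null after kainate (-0.36), passed at an adjusted p under 0.05.

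Among the aged groups 0 of the 9 genes passed in any comparison by limma, with 1 or 2 genes at an unadjusted p under 0.05 in each (3.37% to 11.2% of all genes). Calb2 was higher in fosB-null mice with epilepsy (10.54, 10.96 and 10.80) than in wild type (10.49, 10.20 and 10.24), with arrays apart and a difference of 0.45 (SE 0.16, interval 0.10 to 0.81, adjusted p = 1). The mean interneuron level was 10.29 to 10.63 with epilepsy and 10.47 to 10.57 in wild type, overlapping. There 5.34% of all genes were apart and 0 genes were called by limma, with 672 at an unadjusted p under 0.05. Dcx was 9.30, 9.07 and 9.30 with epilepsy and 9.41, 9.29 and 9.57 in wild type, overlapping (-0.20, interval -0.47 to 0.07). With 2 arrays in a group more genes have arrays apart, as the background shows. Sox11 was lower in fosB-null mice without epilepsy (8.97 and 8.80) than in wild type (9.21, 9.09 and 9.15; difference -0.27, SE 0.11, adjusted p = 0.372), and Neurod1 was 0.23 higher (adjusted p = 0.464), the 2 of 9 genes apart where 31.5% of all genes were and 0.0351% were called.

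Fewer arrays limit the other aged comparisons in the same way. With against without epilepsy, Sox4 differed by -0.22 in fosB-null mice (adjusted p = 0.506), 26.9% of all genes had arrays apart and 0 were called by limma (1948 at an unadjusted p under 0.05). The aged d/d mice were above wild type in Sox4 (8.29 and 8.40 against 8.21, 8.06 and 8.06, difference 0.24, adjusted p = 0.45) and in Sox11 (9.36 and 9.43, difference 0.24, adjusted p = 0.478), with arrays apart for these genes, 27.2% of all genes apart and 0.01% called.

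Aged against 10-week saline mice, 8 of the 9 genes were lower in wild type, with a median difference of -0.21 against 0.00 over all genes, and 0 passed (0.171% of all genes). Sox4 and Dcx were the 2 at an unadjusted p under 0.05, as were 7.95% of all genes. The differences were Sox4 at -0.26 (SE 0.10, interval -0.47 to -0.06, adjusted p = 0.487), Dcx at -0.24 (SE 0.10, interval -0.46 to -0.02, adjusted p = 0.559), Calb2 and Eomes at -0.22 each, Sox11 and Neurod1 at -0.21 each, Igfbpl1 at -0.11, Tubb3 at -0.01 and Nes at 0.05 (adjusted p from 0.63 to 0.999 for these 7). Arrays were apart for Sox4 and Neurod1, and for 11.5% of all genes. In fosB-null mice without epilepsy 6 of 9 genes were lower, with a median of -0.07, and Sox11, the 1 with arrays apart, was -0.42 (SE 0.17, adjusted p = 0.267), with 0.802% of all genes called and 35% apart. In d/d mice 7 of 9 were lower, with a median of -0.21. Arrays were apart for Nes, which was higher (0.17), and for Igfbpl1 (-0.22), Calb2 (-0.38) and Dcx. Dcx was 9.43 and 9.43 when aged and 9.61, 9.65 and 9.65 at 10 weeks, -0.21 (adjusted p = 0.46), with 0.527% called and 34% apart. Age, sex signal and the saline injection cannot be told apart here. Choroid plexus content differed too. The mean level of its markers was 8.62 to 8.63 in aged and 10.64 to 11.01 in 10-week d/d mice, with Ttr called lower (-2.99, adjusted p = 0.0281). The median difference of these markers was -0.92 in wild type and, the other way, 0.63 in fosB-null mice. The part of tissue content in the age differences was not tested. On the deposited scale Sox4 (-0.40, adjusted p = 0.0329) and Sox11 (-0.68, adjusted p = 0.0286) passed in fosB-null and Dcx (-0.48, adjusted p = 0.0436) in d/d mice, where the median of all genes also moved, by -0.28 and -0.25. Of all genes 3601 passed there in fosB-null and 2799 in d/d mice.

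Tubb3 differed by replicate number. In the young mice Tubb3 was 10.20 to 10.35 in the 6 replicate 1 arrays and 9.57 to 9.97 in the other 12, with no overlap, a mean difference of 0.53. In the aged, wild type replicate 1 (10.38) and fosB-null with epilepsy replicate 1 (10.29) were also above the other arrays, the highest of which was 9.97, while replicate 1 of fosB-null without epilepsy was 9.79 and of d/d 9.73, the latter below its replicate 2 (9.97). In the young replicate 1 arrays Calb2 was 0.36 higher on average (10.52 to 10.88, against 9.75 to 10.73 in the others, overlapping), Sox4 0.19 higher and Sox11 -0.23. The median SD within groups was 0.33 for Tubb3, above the range of its 10 group means (0.27), and this SD holds the replicate 1 shift. With the array set as a block Tubb3 was still called in no comparison of the young groups (wild type KA minus saline -0.14, SE 0.08, adjusted p = 0.271). For Calb2 the range of group means was 0.59 against a median SD of 0.23, for Sox11 0.82 against 0.15, for Nes 0.84 against 0.14, for Dcx 0.44 against 0.11 and for Igfbpl1 0.48 against 0.11.

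The order of the groups differed from gene to gene. Dcx ran from 9.22 ± 0.13 (SD, n = 3) in aged fosB-null mice with epilepsy over 9.33 ± 0.18 in wild type KA and 9.41 ± 0.09 in fosB-null saline to 9.64 ± 0.02 in d/d saline and 9.66 ± 0.13 in wild type saline mice. Igfbpl1 ran from 7.60 ± 0.27 in aged fosB-null mice with epilepsy over 7.72 ± 0.12 in fosB-null KA to 8.04 ± 0.08 in d/d KA and 8.09 ± 0.13 in wild type KA mice. Sox11 had its lowest mean in aged fosB-null mice without epilepsy (8.88 ± 0.12, n = 2) and its highest in wild type KA (9.70 ± 0.21), and Sox4 its lowest in aged fosB-null mice with epilepsy (8.03 ± 0.08) and its highest in wild type KA (8.46 ± 0.09). Neighbours in these orders overlapped in their arrays, but for fosB-null and wild type saline and for d/d saline and d/d KA in Igfbpl1, and for aged d/d and fosB-null KA in Dcx. As a description over the 10 group means, which share arrays and normalization, Igfbpl1 correlated with Sox11 at 0.78, Dcx with Tubb3 at 0.75 and Nes with Neurod1 at -0.73. These are the largest in size of all pairs of the 9 genes. Over the 28 arrays the same pairs were at 0.53, 0.21 and -0.33. Within groups they were at 0.07, 0.04 and 0.39, so Nes and Neurod1 changed sign.

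Other genes of the same lineage were read from 4 lists for the wild type KA comparison, where the 9 genes had 1 higher and 1 lower and 6.9% of all genes were called. Of 19 measured genes of stem and radial glia-like cells 4 rose and 5 fell, with a median of -0.10. The genes that rose were Gfap, Vim (1.44, SE 0.19, adjusted p = 0.000232), Tnc (0.82, SE 0.16, adjusted p = 0.00477) and Sox9 (0.46, SE 0.10, adjusted p = 0.00808), of which Gfap and Vim are on the reactive astrocyte list as well. Those that fell included Prom1, a membrane protein of stem cells (-0.50, SE 0.08, adjusted p = 0.00124), Id4, an inhibitor of proneural factors (-0.70, SE 0.15, adjusted p = 0.00874), and the patterning factors Pax6 (-0.36) and Emx2 (-0.36). Sox2 was -0.09 (adjusted p = 0.718) and Hes5 0.03 (adjusted p = 0.93).

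Among 23 cell cycle genes 3 rose, the replication licensing genes Mcm5 (0.64, SE 0.09, adjusted p = 0.000373), Mcm2 (0.56, SE 0.10, adjusted p = 0.0019) and Mcm3 (0.46, SE 0.11, adjusted p = 0.0169), while Mki67 (0.03, adjusted p = 0.949) and Top2a (0.10, adjusted p = 0.814) did not pass. The list's median was 0.12. Of 24 other genes of neuroblasts and immature neurons Tubb2b, a beta-tubulin of growing neurons, rose (0.34, SE 0.09, adjusted p = 0.0374) and Tbr1, a factor of glutamatergic neurons, fell (-0.48, SE 0.10, adjusted p = 0.00593), with a median of -0.09. These 2 of 24 are near the share called over all genes. Gap43 (-0.00, adjusted p = 0.999) and Insm1 (-0.02, adjusted p = 0.953) did not pass.

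The list of dentate granule cells, the mature product of the lineage, held 8 of 12 genes that fell and 0 that rose, with a median of -0.39 against 0.01 over all genes. Tdo2 (-1.72, SE 0.20, adjusted p = 6.27e-05), Lct (-0.96, SE 0.17, adjusted p = 0.00251) and Trpc6 (-0.53, SE 0.11, adjusted p = 0.00624) had the smallest p, and Prox1, the granule cell identity factor, was -0.23 (SE 0.07, adjusted p = 0.0428), while Calb1 did not pass (-0.15, adjusted p = 0.406). The mean level of this list was 10.23 to 10.27 in wild type saline and 9.73 to 9.79 in wild type KA arrays. In the mutants after KA it was 9.98 to 10.20 (fosB-null) and 9.93 to 10.16 (d/d). Against wild type KA, Dsp (0.80, SE 0.14, adjusted p = 0.0167) and Lct (0.94, SE 0.17, adjusted p = 0.0167) were higher in fosB-null mice. These were 2 of 12 genes, where 0.792% of all genes were called. In d/d mice 0 of 12 were called, where 0.687% of all genes were. Replicates 2 and 3 of the mutant KA groups and of wild type KA lie in different array sets.

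In the mutants fewer of these genes passed, as did fewer of all genes (0.762% and 0.461%), and the difference was not tested for the lists. In fosB-null mice Gfap (1.32) and Vim (0.97) rose and Emx2 (-0.58) and Prom1 (-0.48) fell among the stem cell genes, and Bub1 (0.58, SE 0.11, adjusted p = 0.0169), a mitotic checkpoint kinase, was the 1 cell cycle gene that rose. Tubb2b rose there too (0.48, SE 0.09, adjusted p = 0.0212), and Plk5 (-0.65) and Tdo2 (-1.02) were the granule cell genes that fell, 2 of 12, with a median of -0.27. In d/d mice Gfap (1.27, SE 0.13, adjusted p = 0.00063) was the 1 called gene of the 4 lists.

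**Figure D4:**
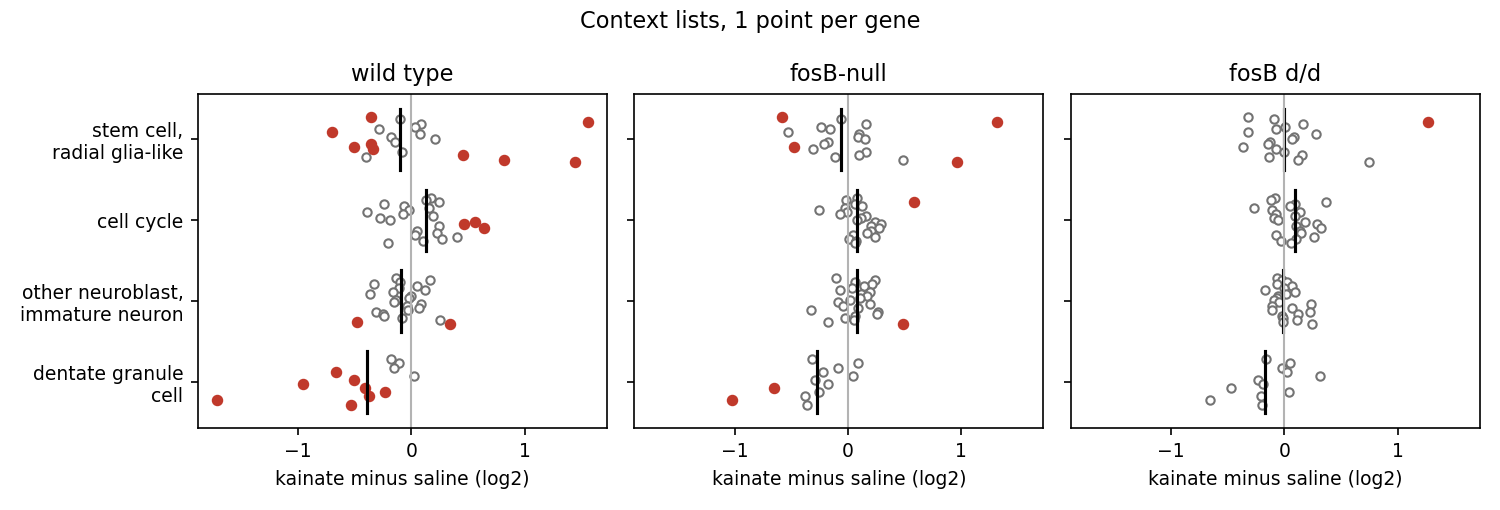
Difference of mean log2 signal, kainate minus saline (horizontal axis), for each measured gene of 4 lists (stem and radial glia-like cell, cell cycle, other neuroblast and immature neuron, dentate granule cell) in the 3 genotypes. Each point is 1 gene, filled red points passed at an adjusted p under 0.05 and black lines are list medians, which for the dentate granule cell list were -0.39 in wild type, -0.27 in fosB-null and -0.17 in d/d mice.

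The genes whose 10 group means were most like those of Dcx were Cbx8 (Pearson r = 0.956), Gna12 (0.950), Rab3b (0.946), Fut11 (0.945) and Klf5 (0.932). Over the 28 arrays their correlations with Dcx were 0.768, 0.539, 0.687, 0.647 and 0.735. For Igfbpl1 they were Metrn (0.946), Fbxw11 (0.932), Zfp579 (0.929), Prrx2 (0.920) and Atp13a1 (0.917), with 0.519, 0.349, 0.317, 0.430 and 0.443 over the arrays. These are the highest of 19938 genes over 10 points that share arrays and normalization, and are given as a description.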

How the data were processed

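The deposited file holds a log2 signal for each of 35557 probe sets on each array. The authors made it with Affymetrix Expression Console, per the submitters' processing notes. The version, algorithm and genome build are not given in the sources used here. Of the probe sets 21789 had 1 symbol, 1621 several and 12147 none. The brightest probe set stood for each of 999 genes with more than 1, leaving 19938 genes. There were 0 other columns. Medians differed between arrays, so the columns were quantile-normalized over all probe sets, and groups were compared with limma 3.58.1 (R 4.3.3) in 3 fits of group means, of the 18 young, the 10 aged and all 28 arrays, without a replicate block, with Benjamini-Hochberg adjustment. Replicates correlated at 0.986 to 0.998. The procedure was tested on simulated data with independent noise in each array. These held no array sets and no shifts shared by replicate number, so the effect of such shifts on the calls was not tested there. The number of arrays limits the precision.

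The 9 genes, the lists and the settings were chosen with earlier results of these data known. The text names these genes, Fosb, the 5 genes closest to Dcx and to Igfbpl1 by correlation of group means, up to 4 called genes of smallest adjusted p per list, and other list genes with their values.

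Replicate numbers recur between groups with no stated meaning. By the correlation of deviations from group means, all pairs above 0.1, they paired the arrays for KA against saline in fosB-null (0.23 to 0.38) and d/d mice (0.26 to 0.36), with saline for d/d against wild type (0.40 to 0.77) and fosB-null against d/d (0.20 to 0.33), for fosB-null against wild type after KA (0.35 to 0.48) and, in aged mice, for fosB-null with epilepsy against their wild type (0.21 to 0.50). Alternatives were the deposited scale, median centring, the replicate block, the array set as a block or alone, a filter on the dimmest 30 percent of genes, averaged probe sets, robust and trended moderation, only the compared groups, age as a covariate and each array left out.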

Additional observations from a re-analysis of the deposited data

How the results depend on the processing

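Of 162 results for single genes among the 9, run under 2331 alternatives in all, 2306 kept their side of the threshold (164 of these changed sign with no call on either side), 15 lost the call, 10 gained it and 0 called values changed sign. The count of the 9 genes called for KA in wild type mice, 2, became 1 on the deposited scale, 0 with only the compared groups, 4 within array set 2, 3 with the array set as a block and 1 to 2 with an array left out. Of all 19938 genes 1375 were called in the main fit, 503 with only the compared groups and 3538 within array set 2, which holds 2 arrays per group. For fosB-null against wild type after KA the count of 1 became 0 on the deposited scale, with median centring, with only the compared groups and with the array set as a block, and was 0 to 1 with an array left out. For d/d against wild type after KA the count of 0 became 1 on the deposited scale and with the array set as a block, and 0 to 1 with an array left out. For age the 0 became 2 in fosB-null and 1 in d/d mice on the deposited scale. There 23 of all genes were called higher and 3578 lower in fosB-null, and 21 higher and 2778 lower in d/d mice. The median gene moved by -0.28 and -0.25. The cause of these shifts was not tested. In the paired fit, with replicate number as a block, the counts stayed at 2 for KA in wild type mice and at 1 for fosB-null against wild type after KA, and it changed no call of the 9 genes. Eomes, the dimmest of the 9, has no value with the dimmest 30 percent left out.

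Counts over all genes moved more, here first without the left-out arrays. For KA in wild type they were 503 to 3538 around 1375, in fosB-null 12 to 476 around 152 and in d/d 0 to 416 around 92. For fosB-null against wild type after KA they were 3 to 716 around 158, with 57 higher and 101 lower, against 2 higher and 208 lower on the deposited scale, where the median gene moved by -0.20. For d/d the range was 0 to 526 around 137, with 42 higher and 95 lower, against 3 and 391. For fosB-null against wild type with saline it was 0 to 1044 around 16, and for age 25 to 3601 around 160 in fosB-null and 69 to 2799 around 105 in d/d mice. With an array left out the lowest counts were 711, 22 and 4 for KA in wild type, fosB-null and d/d mice, 36 and 35 for fosB-null and d/d against wild type after KA, 2 for fosB-null against wild type with saline, and 9 (without aged fosB-null without epilepsy replicate 1) and 10 (without aged d/d replicate 1) for age. The spread between 2 or 3 arrays limits every comparison.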
